A study of Mus musculus with 8 samples.

Results

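Perineuronal nets were followed here through 10 genes, chosen by function: 4 lecticans (Acan, Bcan, Ncan and Vcan), 3 link proteins (Hapln1, Hapln3 and Hapln4), 2 tenascins (Tnr and Tnc) and the receptor phosphatase Ptprz1. All 10 were found by symbol among the 38553 genes of the deposited tables. RNA-Seq was used to compare them between dorsal and ventral medial entorhinal cortex (MEC), the part of parahippocampal cortex in which grid cells are found. Both groups came from untreated male C57BL/6JolaHsd mice aged 8 weeks, 13 in all, from which the dorsal and the ventral part of an acute slice of the right MEC were dissected. Tissue from 3 or 4 mice was pooled for each library, which gave 4 dorsal and 4 ventral libraries, so that replicates differ as pools and not as single mice. The mice formed 4 groups and each group gave tissue of both regions, so the dorsal and ventral libraries share mice. The RNA was of bulk tissue, and for every gene below fewer cells of a type and less RNA per cell cannot be told apart.

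A perineuronal net is a mesh of extracellular matrix around the soma and proximal dendrites of certain neurons, in cortex mostly parvalbumin-containing fast-spiking interneurons. Its backbone is hyaluronan, to which lecticans (chondroitin sulfate proteoglycans) bind by one end. Link proteins hold that bond, and tenascin-R cross-links the other ends of the lecticans. Nets form late in postnatal development and are known for limiting plasticity, and in the MEC they surround fast-spiking interneurons.

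The deposited tables name the regions only as 2 numbered conditions, and the column headers of the FPKM table (fragments of a gene scaled by its exon length and by the size of the library) conflict with them. Averages over columns D1, V1, D2, V2 and over columns D3, V3, D4, V4 equalled the authors' means for the 2 conditions within 0.1% in 24180 of the 24195 genes above 0, whereas means by header letter did so in 1197. The first condition is dorsal and the second ventral in the authors' own comparison, and these regions were used. The header therefore names the other region for 4 of the 8 libraries (V1, V2, D3 and D4), and every result rests on this assignment. Results under the headers' regions, and in the 4 libraries for which both sources give the same region, are given with each net gene or in the closing section, and both were chosen after seeing the data. Of the 32 list genes described further on as called in the main comparison, all 32 had the same sign and 17 the same call in those 4 libraries, and 8 had the same sign and 0 the same call under the headers' regions. Libraries are called by their headers.

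Dorsal libraries held 11435081 to 15359782 fragments assigned to genes and ventral libraries 10780902 to 14535142. The genes tested were the 13330 that reached 1 FPKM on average and 10 fragments per library on average. A gene was called higher dorsally (D>V) or ventrally (V>D) when the regions differed by at least 20% and the adjusted p, here from edgeR's quasi-likelihood test on fragments with Benjamini-Hochberg adjustment over all genes tested, was under 0.05. By these criteria 479 genes (3.59%) were D>V and 403 (3.02%) V>D, and in 1507 (11.3%) the FPKM of the regions did not overlap. Log2 fold changes are ventral over dorsal throughout, so that D>V genes are negative, and their median over all genes tested was 0.00, with the middle 50% between −0.10 and 0.11. Of the markers of entorhinal principal cells, Reln, a stellate cell marker, averaged 31.7 FPKM in dorsal and 35.8 FPKM in ventral libraries.

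Of the 10 net genes, 8 were in this test. Hapln4 was D>V and Tnc was V>D, that is 1 of 8 in each direction, and the other 6 were not called. FPKM did not overlap between regions in 3 of the 8, Hapln4, Tnc and Ptprz1. The median log2 fold change of the 8 was −0.0048. Acan and Hapln3 had a mean FPKM under 1 and were tested only in a wider set of 15353 genes, kept by fragment number alone, in which 520 genes (3.39%) were D>V, 455 (2.96%) were V>D and 1692 (11.0%) did not overlap between regions. There Hapln3 was V>D, with no overlap between regions, and Acan was not called. The FPKM summed over all 10 genes was 157 ± 8.46 dorsally and 162 ± 8.01 ventrally (SD, n = 4 each).

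**Figure D1:**
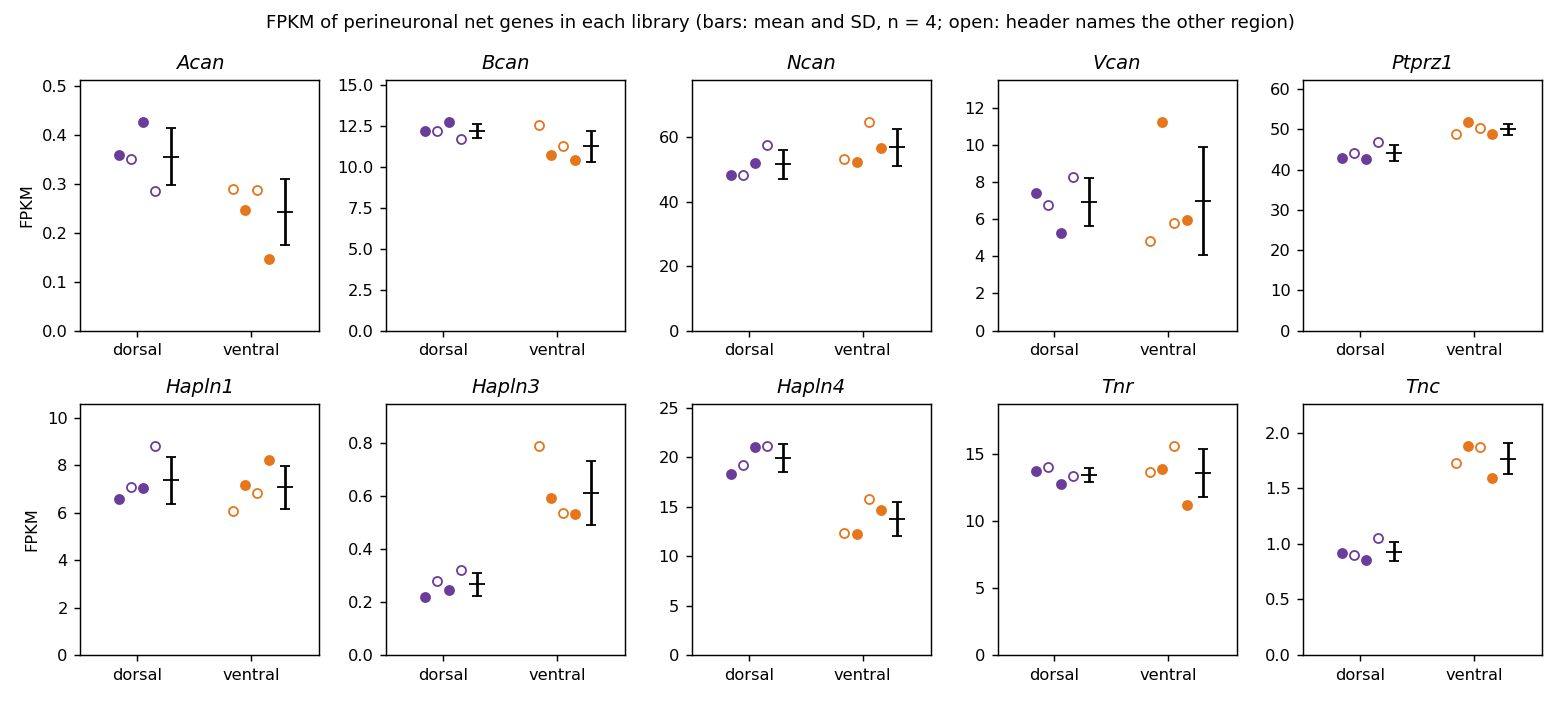
FPKM (y axis, from 0, its scale set for each gene) of the 10 perineuronal net genes in the 4 dorsal and 4 ventral libraries, each point a library and each bar the mean with its SD. The regions separate without overlap for Hapln4, Tnc, Hapln3 and Ptprz1, and open points are the 4 libraries whose header names the other region.

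Levels of the net genes spanned a wide range. Ncan, averaging 54.2 FPKM over the 8 libraries, and Ptprz1, at 47.1 FPKM, were the highest, and their ranges over libraries (48.2 to 64.9 and 42.7 to 51.9 FPKM) overlapped. Hapln4 (16.8 FPKM), Tnr (13.5 FPKM) and Bcan (11.7 FPKM) followed, each overlapping the next. Hapln1 (7.23 FPKM) and Vcan (6.95 FPKM) also overlapped each other. All values of Hapln1 lay below those of Bcan, while Vcan, which reached 11.3 FPKM in ventral library V3, overlapped Bcan. Tnc averaged 1.35 FPKM. Hapln3, at 0.439 FPKM, and Acan, at 0.299 FPKM, were lowest and overlapped each other. Dorsally Hapln3 (0.266 FPKM) averaged less than Acan (0.356 FPKM), and ventrally Acan (0.243 FPKM) averaged less than Hapln3 (0.612 FPKM).

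The promoters of Tnc and Hapln3, the net genes called V>D, are shown with that of Acan, whose gene ends beside Hapln3. Each runs 5′ to 3′ from 250 bases before the start to 50 bases from the start on, as RefSeq gives it on GRCm38.p6. Capitals mark matches to the GC box GGGCGG, the TATA box TATAAA or the E box CACGTG, searched on both strands, where overlapping matches run together.
Tnc, chr4:64046887-64047186, minus strand: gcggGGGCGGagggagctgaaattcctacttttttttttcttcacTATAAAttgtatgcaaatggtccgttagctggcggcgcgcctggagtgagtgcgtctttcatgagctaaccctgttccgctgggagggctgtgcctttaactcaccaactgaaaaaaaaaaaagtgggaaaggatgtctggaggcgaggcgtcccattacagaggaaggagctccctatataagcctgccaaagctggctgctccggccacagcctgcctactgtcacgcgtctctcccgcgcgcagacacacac
Hapln3, chr7:79130969-79131268, minus strand: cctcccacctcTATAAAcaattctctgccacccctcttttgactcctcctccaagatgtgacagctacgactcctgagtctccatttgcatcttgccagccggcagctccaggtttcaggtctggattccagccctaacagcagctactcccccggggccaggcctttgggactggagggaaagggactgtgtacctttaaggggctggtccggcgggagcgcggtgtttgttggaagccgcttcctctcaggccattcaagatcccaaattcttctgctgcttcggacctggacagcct
Acan, chr7:79052976-79053275, plus strand: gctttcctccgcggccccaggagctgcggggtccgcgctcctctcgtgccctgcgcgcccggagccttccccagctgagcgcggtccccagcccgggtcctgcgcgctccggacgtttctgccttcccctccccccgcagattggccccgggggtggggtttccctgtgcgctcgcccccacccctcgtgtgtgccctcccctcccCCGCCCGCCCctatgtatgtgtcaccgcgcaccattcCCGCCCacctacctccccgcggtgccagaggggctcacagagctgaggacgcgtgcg
RefSeq lists 2 starts for Tnc, of which 1 is shown. Of the 9 net genes with an entry (all but Hapln4), 3 held TATAAA, namely Tnc, Hapln3 and Ncan, against 13.6% of all 32851 promoters of this length. TATAAA lay 205 bases before the start shown for Tnc and 126 before its other start. It lay 239 bases before the start of Hapln3 and 11 before that of Ncan. Only exact matches were searched, so variants of the TATA box in these windows are unmarked. In Ncan, whose promoter is not shown, the match was on the strand opposite to the gene. A GC box was in 6 of the 9, against 35.7% of all promoters, and no E box was in any, against 7.15%. The Acan promoter had a GC content of 74.0% and 31 CpG, that of Tnc 54.0% and 16 and that of Hapln3 57.0% and 9, and the median promoter had 52.7% and 7. These matches describe letters in the window and not binding.

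The lecticans carry the chondroitin sulfate chains of the net. Neurocan (Ncan), made by neurons and astrocytes, was at 48.4, 48.2, 52.1 and 57.6 FPKM in dorsal libraries D1, V1, D2 and V2 and at 53.4, 52.4, 64.9 and 56.7 FPKM in ventral libraries D3, V3, D4 and V4. The ventral libraries tended to be higher, but the regions overlapped. The log2 fold change was 0.15 (SE 0.08, edgeR adjusted p = 0.353). Brevican (Bcan), the other lectican abundant in adult brain, was at 12.2, 12.2, 12.8 and 11.7 FPKM dorsally and 12.6, 10.7, 11.3 and 10.4 FPKM ventrally. One ventral library, D3, lay among the dorsal ones and the other 3 below them, with a log2 fold change of −0.11 (SE 0.08, edgeR adjusted p = 0.496).

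Versican (Vcan), a lectican also made by oligodendrocyte precursors, was the most variable between libraries in FPKM of the 8 net genes with a mean of at least 1. Its FPKM was 7.41, 6.79, 5.25 and 8.28 dorsally and 4.84, 11.3, 5.80 and 5.93 ventrally. Ventral library V3 stood above all others and ventral library D3 below them. Its fragments gave another picture, since scaled to library size (CPM) they ranged from 41.8 to 58.5, a ratio of 1.40 between the highest and the lowest library, whereas the same ratio of the FPKM was 2.33. For Vcan the fragments behind 1 FPKM, relative to the median library, lay between 0.602 and 1.13, while in each of the other net genes they lay within 0.961 and 1.02. FPKM sums over the isoforms of a gene, each divided by its own length, and Vcan has 8 coding transcripts in GENCODE M21. Whether isoforms differed between these libraries was not tested. On fragments the log2 fold change was −0.03 (SE 0.10, edgeR adjusted p = 0.919), with a 95% interval from −0.23 to 0.17.

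**Figure D2:**
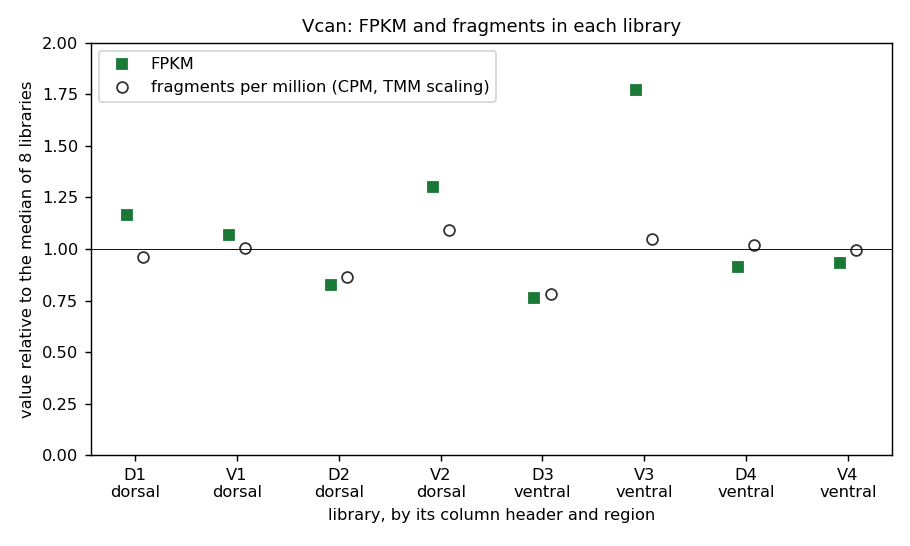
Vcan FPKM (filled squares) and fragments scaled to library size (open circles) in each of the 8 libraries, both divided by their median over libraries (y axis, from 0). Ventral library V3 is far above the others in FPKM (11.3 FPKM) but among them in fragments.

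Aggrecan (Acan), the lectican of the condensed nets around fast-spiking cells, was at 0.359, 0.351, 0.428 and 0.286 FPKM in dorsal and 0.289, 0.246, 0.288 and 0.147 FPKM in ventral libraries. Dorsal library V2 lay just below ventral libraries D3 and D4, so the regions overlapped, and V4 was the lowest of all. The log2 fold change was −0.53 (SE 0.22, edgeR adjusted p = 0.202), with a 95% interval from −0.99 to −0.06 before adjustment. Between 14 and 49 fragments per library stand behind these values. In the 4 libraries with matching headers it was −0.99 (edgeR adjusted p = 0.238), and under the headers' regions −0.38 (edgeR adjusted p = 0.912).

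Summed over the 4 lecticans, FPKM was 71.1 ± 4.73 (SD, n = 4) dorsally and 75.3 ± 4.87 (SD, n = 4) ventrally, and these sums overlapped. Ncan made up 72.5% ± 1.65 of this sum dorsally and 75.4% ± 3.81 ventrally (SD, n = 4 each). The ventral sum and share include the high Vcan FPKM of library V3, which the fragments did not share.

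The link proteins lock lecticans to hyaluronan. Hapln4, or Bral2, a link protein of neurons that joins brevican in nets, lies on mouse chromosome 8 (70083457 to 70090862, plus strand, GRCm38). It was at 18.3, 19.2, 21.0 and 21.2 FPKM in dorsal and at 12.3, 12.2, 15.8 and 14.6 FPKM in ventral libraries. All 4 dorsal libraries were above all 4 ventral ones. Mean FPKM was 19.9 ± 1.42 (SD, n = 4) dorsally and 13.7 ± 1.75 (SD, n = 4) ventrally, the dorsal level being 1.44-fold higher in the fit (log2 fold change −0.53, SE 0.09, edgeR adjusted p = 0.000938).

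Hapln4 was called in all 8 fits that left out 1 library, with log2 fold changes from −0.61 to −0.48. In the 4 libraries with matching headers it was −0.56 (edgeR adjusted p = 0.0398), and under the headers' regions it was −0.0054 (edgeR adjusted p = 0.998). From 662 to 1276 fragments per library stand behind its values.

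Hapln1, or Crtl1, the link protein that neurons with nets make as the nets mature, was at 6.58, 7.08, 7.03 and 8.83 FPKM in dorsal and 6.08, 7.18, 6.82 and 8.23 FPKM in ventral libraries. Here the regions overlapped over nearly their whole range, and the highest library of each region, V2 and V4, stood above the rest. Its log2 fold change was −0.06 (SE 0.10, edgeR adjusted p = 0.841), with a 95% interval from −0.27 to 0.16.

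Hapln3, the link protein known mostly from tissues outside the brain, was at 0.219, 0.281, 0.245 and 0.321 FPKM in dorsal and 0.789, 0.591, 0.537 and 0.533 FPKM in ventral libraries. The ventral values were all above the dorsal ones, but only 4 to 19 fragments per library were counted. Its log2 fold change was 1.20 (SE 0.33, edgeR adjusted p = 0.0366 over 15353 genes). The gene entered this test through the ventral libraries, where it is higher, so its call is no independent support. The call was lost with DESeq2 (adjusted p = 0.140), without a filter (edgeR adjusted p = 0.0637), in the 4 libraries with matching headers (1.25, edgeR adjusted p = 0.425) and in 6 of the 8 fits that left out 1 library, those without D1, V1, D2, V2, D3 or D4 (edgeR adjusted p up to 0.142). Under the headers' regions the value was −0.14.

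Summed over the 3 link proteins, FPKM was 27.6 ± 2.26 (SD, n = 4) in dorsal libraries, which lay between 25.1 and 30.3, and 21.4 ± 2.14 (SD, n = 4) in ventral libraries, which lay between 19.2 and 23.4. Hapln4 made up 72.3% ± 1.88 (SD, n = 4) of this sum dorsally and 64.0% ± 3.06 (SD, n = 4) ventrally.

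**Figure D3:**
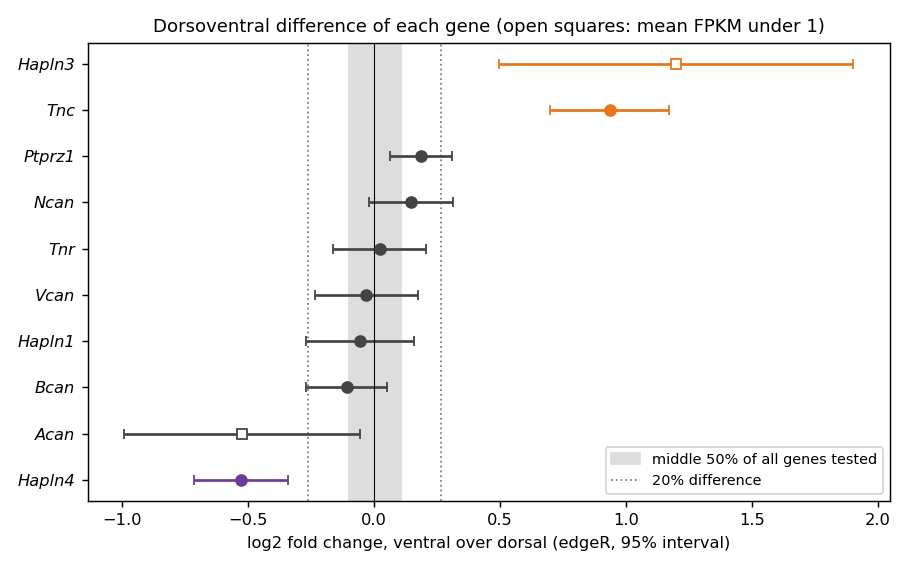
Log2 fold change of each net gene, ventral over dorsal (x axis), with its 95% interval from edgeR before adjustment. The grey band holds the middle 50% of all 13330 genes tested and dotted lines mark a 20% difference. Hapln4 (−0.53) and Tnc (0.93) lie beyond both, as do Acan (−0.53) and Hapln3 (1.20). Acan and Hapln3 (open squares) were fitted in the wider set of 15353 genes, and Acan was not called.

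The tenascins are large glycoproteins that bind lecticans. Tenascin-R (Tnr), which cross-links the net and is made by oligodendrocytes and some neurons, was at 13.7, 14.0, 12.8 and 13.3 FPKM in dorsal and 13.6, 13.9, 15.6 and 11.2 FPKM in ventral libraries. The ventral libraries lay on both sides of the dorsal ones, with D4 highest and V4 lowest. Its log2 fold change was 0.02 (SE 0.09, edgeR adjusted p = 0.942), with a 95% interval from −0.16 to 0.21.

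Tenascin-C (Tnc), a matrix glycoprotein of immature astrocytes and of tissue under repair that is low in most adult cortex, lies on chromosome 4 (63959785 to 64047015, minus strand, GRCm38). It was at 0.916, 0.898, 0.850 and 1.05 FPKM in dorsal and 1.73, 1.88, 1.87 and 1.59 FPKM in ventral libraries. The lowest ventral library, V4, was above the highest dorsal library, V2. Mean FPKM was 0.928 ± 0.0850 (SD, n = 4) dorsally and 1.77 ± 0.136 (SD, n = 4) ventrally, 1.91-fold higher ventrally in the fit (log2 fold change 0.93, SE 0.11, edgeR adjusted p = 4.8e-05).

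The call of Tnc held in all 8 fits that left out 1 library, with log2 fold changes from 0.89 to 1.0, and its values rest on 91 to 224 fragments per library. Tnc reached the mean of 1 FPKM through the ventral libraries, where it is higher. In the wider set, kept by fragment number without an FPKM minimum, its log2 fold change was 0.93 (edgeR adjusted p = 4.22e-05 over 15353 genes). In the 4 libraries with matching headers the value was 0.92 (edgeR adjusted p = 0.0250), and under the headers' regions it was −0.053 (edgeR adjusted p = 0.991). In GENCODE M21, exons of Tnc overlap 8030451A03Rik and those of Tnr overlap Gm38039, both on the opposite strand. How strand entered the counting is not given in the sources used here, so reads of these genes cannot be told apart.

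Ptprz1, a receptor phosphatase of astrocytes and oligodendrocyte precursors, binds tenascins and pleiotrophin, and its secreted form, phosphacan, is part of nets. It was at 42.9, 44.0, 42.7 and 47.0 FPKM in dorsal and 48.9, 51.9, 50.2 and 48.9 FPKM in ventral libraries. The ventral libraries were all above the dorsal ones, by a small margin. The log2 fold change of 0.19 (SE 0.06, edgeR adjusted p = 0.0702) was under the 20% difference and missed the threshold. In the 4 libraries with matching headers it was 0.23 (edgeR adjusted p = 0.285), and under the headers' regions 0.052 (edgeR adjusted p = 0.958).

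Each link protein gene lies beside a lectican gene in GENCODE M21 (GRCm38), with no protein-coding gene between them. Hapln1 and Vcan are 43659 bases apart on chromosome 13, Hapln2 and Bcan 21519 bases on chromosome 3, Hapln3 and Acan 2 bases on chromosome 7 and Hapln4 and Ncan 2222 bases on chromosome 8. Hapln2, or Bral1, the link protein of nodes of Ranvier, is added here for the fourth pair. Except for Hapln2 and Bcan, the genes of a pair face each other and end side by side.

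The FPKM ratio of Hapln4 to Ncan was 0.387 ± 0.0172 dorsally and 0.242 ± 0.0120 ventrally (SD, n = 4 each). No dorsal ratio was under 0.367 and no ventral ratio above 0.258. The ratio of Hapln3 to Acan was 0.776 ± 0.251 (SD, n = 4) dorsally and 2.66 ± 0.740 (SD, n = 4) ventrally, on few fragments. The ratio of Hapln2 to Bcan was 0.138 ± 0.0111 (SD, n = 4) dorsally and 0.0877 ± 0.0244 (SD, n = 4) ventrally. The ratio of Hapln1 to Vcan was 1.08 ± 0.187 (SD, n = 4) dorsally and 1.11 ± 0.330 (SD, n = 4) ventrally. Its ventral values include the high Vcan FPKM of library V3, which the fragments did not share. The ratio of Tnc to Tnr was 0.0691 ± 0.00643 (SD, n = 4) dorsally and 0.131 ± 0.00982 (SD, n = 4) ventrally. These ratios were formed after the single genes were known, carry over the differences of Hapln4, Hapln3, Hapln2 and Tnc themselves, and were not tested.

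**Figure D4:**
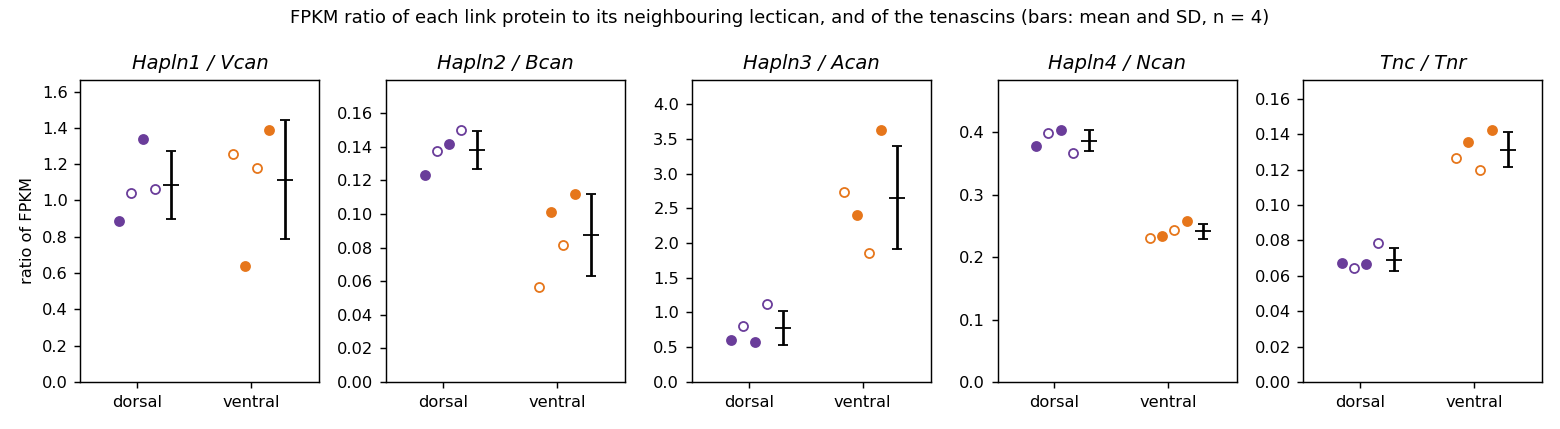
FPKM ratio (y axis, from 0) of each link protein gene to its neighbouring lectican gene, and of Tnc to Tnr, in the 4 dorsal and 4 ventral libraries, with mean and SD. Hapln4 to Ncan falls into separate groups around 0.387 and 0.242, whereas Hapln1 to Vcan overlaps.

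Genes that build, cut or bind the net were also compared. Of the genes for chondroitin sulfate chain synthesis and sulfation, 16 of 20 were tested and 1 was called, B3gat3, which completes the linker to the core protein (12.1 ± 0.900 FPKM dorsally and 9.45 ± 0.712 ventrally, SD, n = 4, log2 fold change −0.35, edgeR adjusted p = 0.0246). Of the hyaluronan genes 6 of 9 were tested and 0 were called by edgeR, DESeq2 or limma, with 2 at an unadjusted p under 0.05 in edgeR. In a fit with the replicate number as a block 1 was called, Tmem2, a hyaluronidase at the cell surface (V>D, 0.26, edgeR adjusted p = 0.0464). Of the proteases that cut lecticans 4 of 10 were tested and 2 were D>V. These were Adamts4 (−0.65, edgeR adjusted p = 0.00125), an aggrecanase that oligodendrocytes express, and Adamts20 (−0.43, edgeR adjusted p = 0.0115).

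Among 15 of 19 tested net-associated ligands and receptors, 1 was D>V and 2 were V>D. The D>V gene was Hapln2, at 1.51, 1.67, 1.81 and 1.76 FPKM in dorsal and 0.707, 1.09, 0.922 and 1.17 FPKM in ventral libraries (log2 fold change −0.89, edgeR adjusted p = 0.00381). The value was −0.72 in the 4 libraries with matching headers, where it was not called (edgeR adjusted p = 0.307), and 0.15 under the headers' regions. Its dorsal libraries were all above the ventral ones. The V>D genes were Ptprf (0.29, edgeR adjusted p = 0.0467) and Rtn4rl1 (0.43, edgeR adjusted p = 0.00189), which encode receptors of the families that bind chondroitin sulfate. The proteoglycans Cspg4, of oligodendrocyte precursors, and Cspg5, or neuroglycan C, had log2 fold changes of 0.38 (edgeR adjusted p = 0.0528) and 0.11 (edgeR adjusted p = 0.435), and Cspg4 was called V>D with the block (edgeR adjusted p = 0.0181). In the wider set Nptx2, a neuronal pentraxin, had a log2 fold change of −0.91 (edgeR adjusted p = 0.0550) and was called D>V with the block (edgeR adjusted p = 0.0246), and it is named for this change, after its values were seen.

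Of the markers of parvalbumin fast-spiking interneurons, the cells that carry most cortical nets, 3 of 10 were D>V and 1 was V>D, with a list median of 0.06. Pvalb, the calcium-binding protein that names them, was at 12.8, 17.9, 16.3 and 15.7 FPKM in dorsal and 5.29, 7.57, 6.75 and 6.92 FPKM in ventral libraries, with no overlap (log2 fold change −1.25, SE 0.14, edgeR adjusted p = 2.12e-05). Pvalb was at −1.01 in the 4 libraries with matching headers (edgeR adjusted p = 0.0238) and at 0.25 under the headers' regions (edgeR adjusted p = 0.953). Syt2, a synaptotagmin of their terminals, had a log2 fold change of −1.33 (edgeR adjusted p = 5.88e-07) and Kcnab3, a potassium channel subunit, at −0.41 (edgeR adjusted p = 0.0121). Tac1, a neuropeptide precursor, was at 1.05 in the other direction (edgeR adjusted p = 0.000205). Kcnc1 and Kcnc2, fast potassium channels of these cells, were not called, with log2 fold changes of −0.09 and 0.26. Kcnc2 passed the adjusted p (edgeR, 0.0277), its ventral libraries all above the dorsal ones, but fell just short of the 20% difference. Summed FPKM of the list was 119 to 126 in dorsal and 106 to 114 in ventral libraries, while 4 of its 10 genes had a log2 fold change below 0. Kcnc1 averaged 34.7 FPKM dorsally and 27.7 FPKM ventrally without overlap, a larger difference than its fragments gave (−0.09, edgeR adjusted p = 0.558). Hapln4 and Pvalb were thus both higher dorsally, Ncan, Bcan, Tnr and Hapln1 were not called, and the part of these markers in the value of Hapln4 was not tested.

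Markers of other cells also moved with region. All 12 oligodendrocyte markers were D>V, with a median log2 fold change of −0.94, and their summed FPKM was 956 to 1264 in dorsal and 520 to 684 in ventral libraries. In the 4 libraries with matching headers 11 of them were D>V, and under the headers' regions 0 were. Hapln4 and Hapln2 moved in the same direction as these markers and Tnr, which oligodendrocytes also make, was not called. Of 5 tested markers of leptomeningeal fibroblasts, the cells of the membranes over the cortex, 4 were V>D: Dcn (1.0), Slc6a13 (0.65), Igf2 (0.59) and Col1a2 (0.52). Their list summed to 66.8 to 72.3 FPKM in dorsal and 108 to 122 FPKM in ventral libraries, and none of its genes was at 0. Tnc and Hapln3 moved in this direction. The part of either cell type in these values was not tested.

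Among 11 astrocyte markers only Gfap was called, V>D (0.28, edgeR adjusted p = 0.0349), with a list median of 0.03. Of 5 tested markers of oligodendrocyte precursors 1 was V>D, Pdgfra (0.27), and Cspg4 joined it with the block. Of 8 GABAergic neuron markers 1 was V>D, Lhx6 (0.44), and Gad1 had a log2 fold change of −0.14. Of 6 glutamatergic, 7 microglial and 5 endothelial markers 0 were called by edgeR or limma, with 1, 2 and 2 at an unadjusted p under 0.05 in edgeR, and DESeq2 called 1 endothelial marker, Tek. With the block 2 endothelial markers, Flt1 and Tek, were D>V (edgeR adjusted p = 0.000588 and 0.00744). Prox1 (−0.35) was the tested gene of 4 dentate gyrus markers and was D>V. The untested ones, all under 1 FPKM, did not share a direction. Their mean FPKM was 0.0492 dorsally and 0.215 ventrally for C1ql2, 0.367 and 0.405 for Tdo2, and 0.0919 and 0.0256 for Dsp. Of 4 entorhinal markers Wfs1 (−0.54) was D>V and Calb1 (0.90) was V>D, with Etv1 (0.28) added as V>D by the block.

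**Figure D5:**
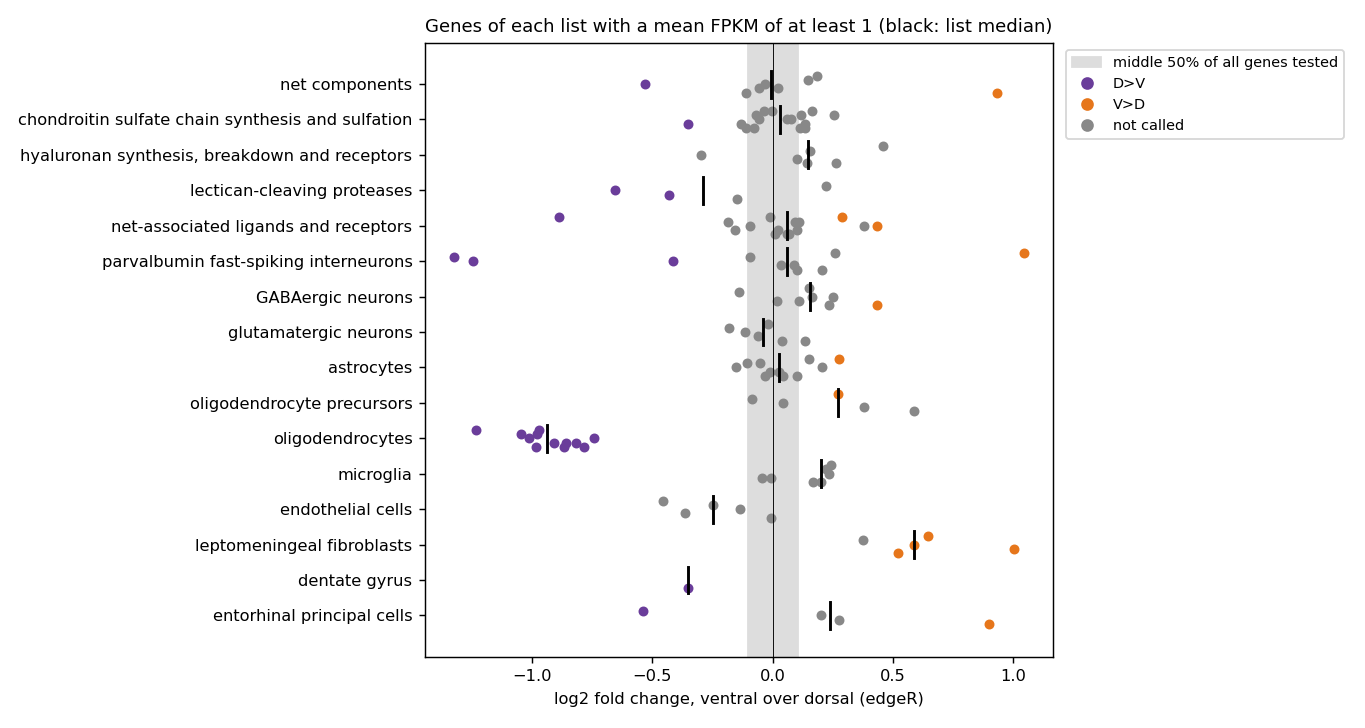
Log2 fold change, ventral over dorsal (x axis), of each tested gene in the lists, with the list median in black and the middle 50% of all genes tested in grey. The 8 net genes scatter around 0 with Hapln4 and Tnc apart, while all 12 oligodendrocyte markers lie to the left.

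The genes whose FPKM over the 8 libraries was most like that of 3 net genes are given as a description. Likeness was Pearson's r of log2(FPKM + 1), over libraries that differ in depth and region. The 3 highest r were picked from the 13330 genes tested over only 8 libraries, so a high r can come from the search alone. No r was tested. For Acan, which rests on 14 to 49 fragments per library, they were Unc13a (0.987), Ppp6r1 (0.968) and Sars (0.963). For Hapln1 they were Ccdc90b (0.969), Sike1 (0.952) and AC165433.1 (0.950). For Tnr they were Ubr4 (0.970), Rhobtb1 (0.961) and Osbpl11 (0.959).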

How the data were processed

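RNA-Seq libraries of dorsal and ventral MEC were compared. RNA (integrity numbers 7.1 to 8.5) was amplified as cDNA, and per the labels reads passed CASAVA 1.8, TopHat2 2.0.8 and Cuffdiff. The deposited FPKM values were summed by the authors over the isoforms of a gene and scaled between libraries by Cuffdiff 2, on Ensembl release 73. The deposited estimated counts of fragments came unscaled from the authors' Cuffdiff 2 run, 90.6% were whole, and they were rounded here. The authors' condition means served to place the regions. The authors' fold changes, p-values and q-values were left aside, as were 2 columns with other values per library. No sample label was matched to a single library, and the pools come from 4 groups of mice that each gave both regions.

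Left out were 28 genes without an OK status. edgeR 4.0.16 (R 4.3.3; TMM, glmQLFTest) compared the regions without a block. SE is the log2 fold change over the square root of F. Alternatives used DESeq2 1.42.0, limma 3.58.1 on log2(FPKM + 1) or log2(FPKM + 0.1), other scaling and filters, no minimum difference, a block, and leaving out each library. The labels do not say which dorsal and ventral libraries share a group of mice, but the fragment table numbers replicates alike in both regions. Deviations of the same number correlated at 0.278, 0.264, 0.303 and 0.173, and those of unlike numbers at −0.447 to 0.148. The numbers were taken as pairs in the block fit, which remains an assumption. The edgeR adjusted p was 3.18e-06 for Hapln4 and 6.73e-06 for Tnc in that fit. In simulated data of this comparison (13330 genes, 200 changed) the test recovered 77% of 1.5-fold and 96% of 2-fold changes. Of its calls there, 4.42% were false. The simulated libraries were drawn independently, so mice shared between the regions were not simulated.

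The genes and lists were chosen with earlier results of these data known, so no list was tested. Named were all 10 net genes, every called list gene, up to 4 uncalled genes a list (the first in its order), and the 3 genes most like Acan, Hapln1 and Tnr. Of the list genes 1, Lhfpl3, had no match. Python 3.11.15, NumPy 2.4.6, pandas 2.3.3 and matplotlib 3.10.9 were used.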

Additional observations from a re-analysis of the deposited data

Results flagged for a closer look

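The Vcan FPKM of ventral library V3, 11.3, stood apart from the other 3 ventral libraries. Its gap to the nearest of them was 0.83 of the whole ventral range, just above Dixon's 95% critical value for 4 samples. Of the 20 groups of 4 libraries examined, this was the 1 group marked, and chance marks about 1 in 20. Fragments of Vcan in V3, scaled to library size, were within the range of the other libraries.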

How the results depend on the processing

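The direction and call of Hapln4 and Tnc held with other scaling, filters, tests, the block and each library left out, with log2 fold changes from −0.54 to −0.50 and from 0.52 to 0.97 outside the fits that left out a library. The settings that took the headers into account were chosen after seeing the data. With the regions of the headers, 2 genes were D>V and 0 V>D by edgeR, with 717 at an unadjusted p under 0.05, and of the net genes 0 were D>V and 0 V>D. The log2 fold changes were then −0.030 for Ncan, −0.12 for Bcan, 0.19 for Vcan, 0.24 for Hapln1, −0.14 for Hapln3, −0.090 for Tnr and −0.053 for Tnc. With the 4 libraries of matching headers, 134 genes were D>V and 81 V>D, and the values were 0.11 for Ncan, −0.24 for Bcan, 0.16 for Vcan, 0.17 for Hapln1 and −0.079 for Tnr. limma on log2(FPKM + 1) called 316 D>V and 223 V>D genes, and with 0.1 added 317 and 223. Kept by fragment number alone, 2 net genes were V>D, the added one being Hapln3. Total-count scaling gave 0.00054 for Vcan. Leaving out 1 library gave 369 (without V1) to 621 (without V3) D>V genes and 283 to 442 V>D genes, with 1 net gene in each direction throughout, and values of −0.088 to 0.059 for Vcan, −0.13 to 0.037 for Hapln1, −0.056 to 0.10 for Tnr and 1.04 to 1.29 for Hapln3. The replicate block gave 668 D>V and 543 V>D genes, of which 478 and 402 were also called without it, changed no call of a net gene and added the list genes named beside their lists. Ptprz1 passed the adjusted p there (0.0188), with DESeq2 (0.0153), with total-count scaling (0.0236) and without V2 (0.0384) but in none of these the 20% difference. The causes of these differences were not tested. Hapln3 and Acan had at most 49 fragments in a library.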
